A study of Mus musculus with 12 samples.

Results

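The data are RNA sequencing of sorted cells from the dentate gyrus, the part of the hippocampus where neurons are still made in adult mice. The signalling genes described here are those of the Wnt, TGF-beta, BMP and hedgehog pathways. They were chosen by symbol: a listed gene counted when its name carried the stem of a ligand, receptor, inhibitor, transducer or nuclear factor of these pathways and when it was above 0 in at least 4 of the 12 libraries. Of 10749 listed genes, 57 matched by symbol and 54 were members, namely 25 Wnt, 21 TGF-beta and BMP and 4 hedgehog genes, and 4 that carry such a name without being part of the pathway. The 3 that matched but were above 0 in fewer libraries were Hhipl1 (2 libraries, 9 reads in all), Hhipl2 (1 library, 2 reads) and Smad9 (1 library, 63 reads). Just inside the limit were Wnt11, with 14 reads in all, and Tgfbr3l, with 37 reads, both in 4 libraries.

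In each of 3 populations 4 libraries were made, all from LPA1-GFP mice of 8 weeks. Stem libraries held cells positive for GFP, EGFR and Prominin1. Progenitor libraries held GFP-positive cells with any of the other 3 combinations of EGFR and Prominin1, and niche libraries held GFP-negative cells. All mice carried the transgene Tg(Lpar1-EGFP)GX193Gsat, in which the gene of the lysophosphatidic acid receptor LPA1 drives a green fluorescent protein (GFP). The line came from an FVB/N-Swiss Webster background and was rederived into C57BL/6. The series describes the 3 populations as taken from each of 4 replicates. What counted as 1 replicate, a single mouse or several pooled, is not stated, so p-values measure only how much these libraries vary, and some of that may be technical. Since each library is bulk RNA of sorted cells, fewer cells of a type and less RNA per cell cannot be told apart.

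Wnt ligands bind Frizzled receptors with Lrp co-receptors and keep beta-catenin from being degraded by the Axin and Apc complex, so that it can act with Tcf and Lef factors in the nucleus. TGF-beta, activin and BMP ligands bind pairs of serine and threonine kinase receptors that phosphorylate Smad proteins, and Smad7 inhibits that step. Hedgehog ligands relieve the inhibition of Smo by Patched, and Sufu and Gli proteins carry the signal on. In the adult dentate gyrus, BMP signalling is known to keep stem cells quiescent, Wnt signalling to promote the formation of neurons, and hedgehog signalling to maintain stem cells.

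Depth was 7597256 to 22854036 reads per library, and 8037 to 9700 genes were above 0. Niche replicate 1 and progenitor replicate 1 stood apart. Alpha-globin genes took 33.0% of reads in niche replicate 1 and 2.62% to 10.9% in the other niche libraries, against at most 0.186% in stem and 0.228% in progenitor. Spearman correlations across genes with the other libraries of the same population were 0.718 to 0.723 for niche replicate 1 and 0.848 to 0.857 for progenitor replicate 1. The neural stem list (8 of 12 genes above 0, with Gfap, Hopx and Prom1 among those missing or at 0) summed to 602 to 1193 RPKM in the stem libraries, 1106 to 2412 in the progenitor and 592 to 736 in the niche libraries. Of its genes, 0 were called higher and 1, Id4, lower in stem than in progenitor. Against niche, 2 were called higher and 1 lower in stem, and 3 higher and 0 lower in progenitor. The microglia and macrophage list (6 of 12) summed to 1962 to 7549 in the stem libraries, 116 to 227 in the progenitor and 2621 to 4863 in the niche libraries, and all 6 were called higher in stem than in progenitor. The cell cycle list (5 of 10) summed to 498 to 890 in the stem libraries, 155 to 246 in the progenitor and 6.52 to 80.4 in the niche libraries. The stem libraries thus carried transcripts of macrophages as well as of dividing cells, and "stem" is used below only as the name of the gate.

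One feature of the deposited table decides which pathway genes can be described. Of 10579 listed genes with a position, 10573 lay on the plus strand of the genome and 6 on the minus strand, whereas the annotation holds 27815 genes on the plus and 27635 on the minus strand. Of 133 annotated protein-coding genes whose symbols match, 57 of the 74 on the plus strand were listed and 0 of the 59 on the minus strand. Central genes such as Bmp4, Bmpr1a, Smad1, Smad4, Nog, Tgfbr2, Lrp6, Wnt7a, Ptch1, Gli1 and Gli2 are among those 59 and are not analysed here. The genes described are therefore nearly the plus-strand share of each pathway, and every one named with a position below lies on that strand.

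Levels are given as RPKM (reads per kilobase of exon, scaled to a common library size), rescaled by trimmed means of M-values (TMM), in the order of replicates 1 to 4. A difference is on the log2(RPKM + 1) scale, with its standard error (SE), and is called when limma's p, adjusted over all genes tested, is under 0.05. This scale understates the difference of genes with low levels. Of the 54 members, 51 passed the filter on low values. Wnt10a (0 reads in all stem, 4 in progenitor and 3 in niche libraries), Wnt11 (12, 1 and 1 reads, 11 of the 12 in stem replicate 1) and Tgfbr3l (1, 36 and 0 reads) did not pass. In at least 1 comparison, 16 members were called. The share of all genes called in at least 1 comparison was not counted, so the 16 tell nothing of the pathways as a set. Shares for each comparison are given below.

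**Figure D1:**
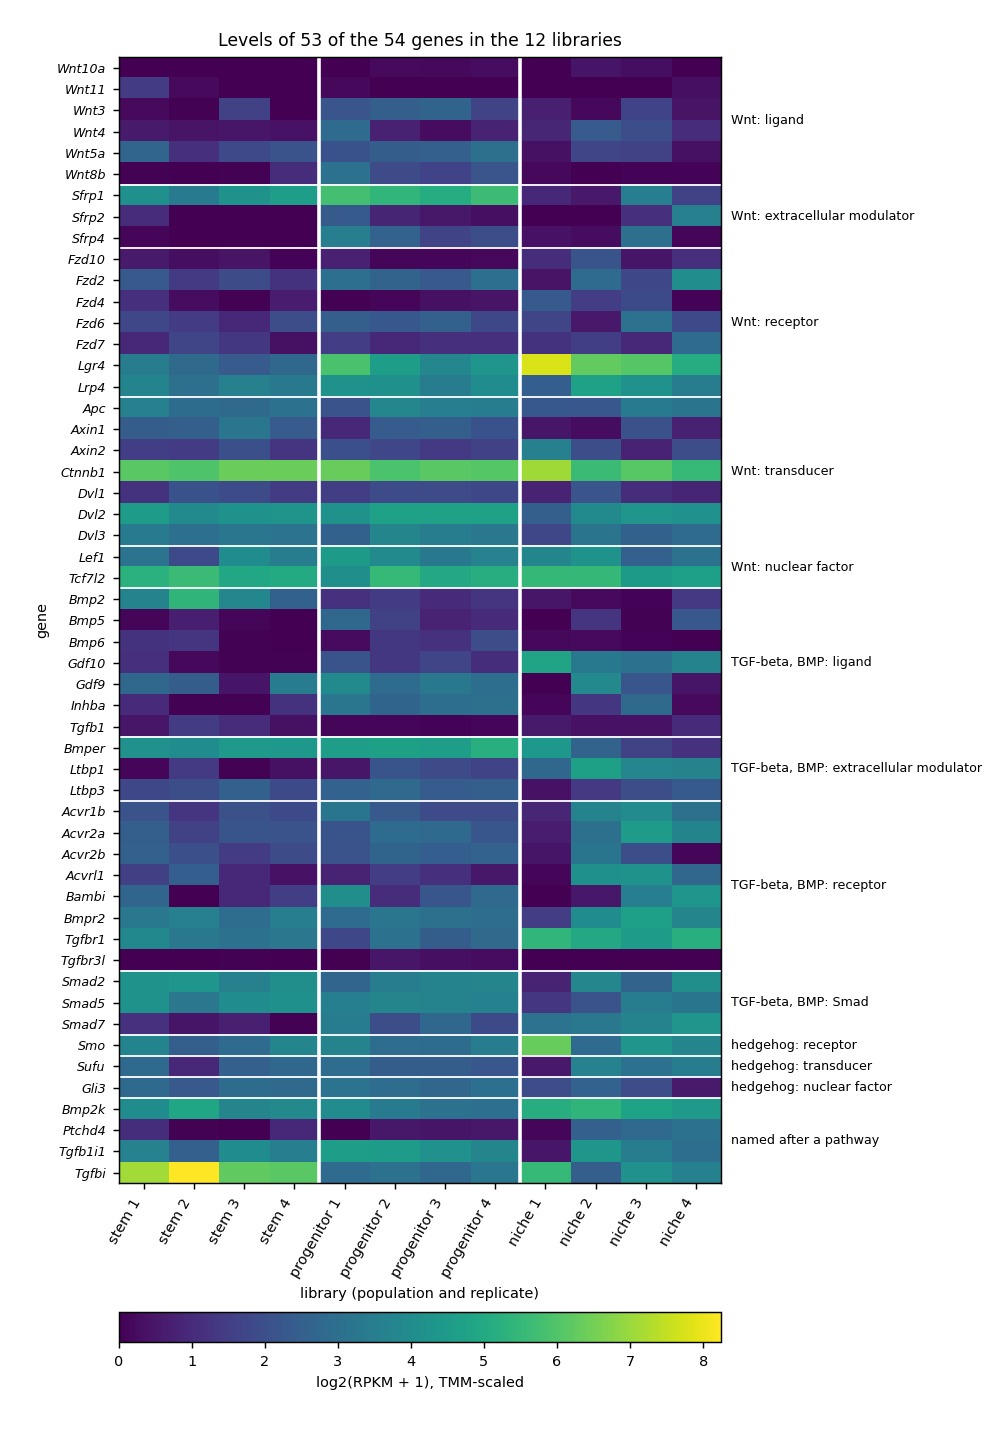
Levels of 53 of the 54 genes in each library, as log2(TMM-scaled RPKM + 1), with genes in rows by pathway and role and libraries in columns from stem on the left through progenitor to niche on the right. Ctnnb1 and Tcf7l2 are bright in every column, Tgfbi is brightest in stem, with 303 RPKM in replicate 2, and Lgr4 in niche, with 221 RPKM in replicate 1.

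Between stem and progenitor libraries, 7 of the 51 tested members differed (13.7%), where 7.09% of all 8360 genes tested were called. In stem, 2 were higher, beside 3.71% of all genes, and 5 lower, beside 3.39%. Tgfbi and Bmp2 were higher in stem, and Wnt3, Wnt8b, Inhba, Sfrp4 and Smad7 were lower. The median difference was -0.41 over the tested members and -0.06 over all genes tested. Without progenitor replicate 1 and niche replicate 1 together, 9 members were called, beside 13.5% of all genes. Leaving out 1 library gave 3 to 8 calls, and the share of all genes moved too. There were 3 calls without stem replicate 2 (beside 4.28% of all genes) or progenitor replicate 1 (4.81%), and 4 calls without stem replicate 3 (5.29%) or 4 (4.97%). The 8 calls were reached, for example, when niche replicate 1 was left out (13.1%).

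Stem and niche libraries differed in 11 members (21.6%), which equals the 21.6% of all genes called. The 5 higher in stem, beside 10.9% of all genes, were Bmp2, Tgfbi, Sfrp1, Bmper and Axin1, and the 6 lower, beside 10.7%, were Lgr4, Gdf10, Ltbp1, Smad7, Tgfbr1 and Ptchd4. The median difference was -0.29 over the members and 0.09 over all genes. Without progenitor replicate 1 and niche replicate 1, 17 were called, beside 36.2% of all genes. By library size alone 8 were higher, beside 24.1% of all genes, and 4 lower, beside 7.01%.

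Progenitor and niche libraries differed in 9 members (17.6%), beside 11.4% of all genes. The 5 higher in progenitor, beside 5.68% of all genes, were Sfrp1, Bmper, Wnt8b, Inhba and Wnt3, and the 4 lower, beside 5.77%, were Tgfbr1, Ltbp1, Gdf10 and Bmp2k. The median difference was 0.43 over the members and 0.15 over all genes. Without those 2 libraries, 15 were called, beside 24% of all genes, and leaving out progenitor replicate 4 alone left 5 calls, beside 6.62%. Scaled by library size alone, 8 were higher, beside 18.2%, and 2 lower, beside 3.76%. The comparisons share libraries, so the counts are not independent of each other.

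**Figure D2:**
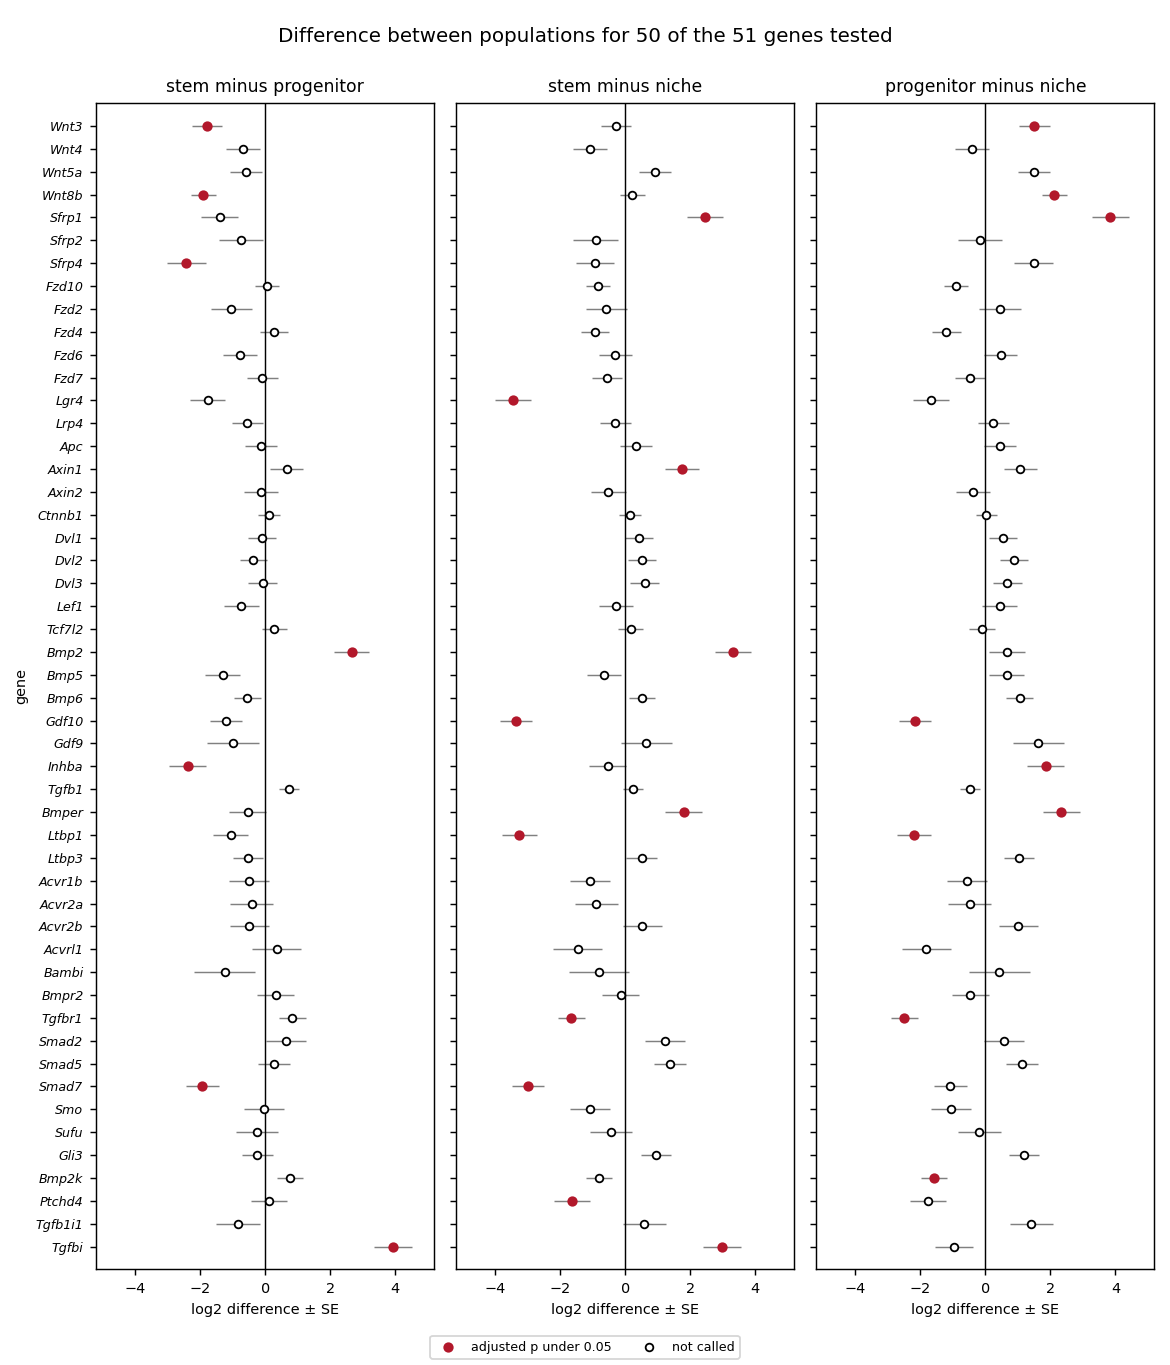
Log2 difference with its SE for 50 of the 51 tested genes, ordered by pathway and role, in the 3 comparisons named above the panels. Filled red points passed an adjusted p of 0.05 and open points did not; 7, 11 and 9 points are filled from left to right, with Tgfbi at 3.94 the farthest to the right and Lgr4 at -3.44 the farthest to the left.

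The sequences before the start sites of 3 called genes are shown because these genes separate stem and progenitor libraries in opposite directions: Tgfbi was higher in stem, and Wnt8b and Wnt3 were lower. They come from RefSeq promoter windows on GRCm38.p6, printed 5′ to 3′ on the plus strand and only up to the base before the annotated gene: chr13:56609336-56609522 for Tgfbi, chr19:44493222-44493471 for Wnt8b and chr11:103773925-103774149 for Wnt3. Capitals mark GGCGCC, a GC-rich run described at BMP-responsive genes.
Tgfbi: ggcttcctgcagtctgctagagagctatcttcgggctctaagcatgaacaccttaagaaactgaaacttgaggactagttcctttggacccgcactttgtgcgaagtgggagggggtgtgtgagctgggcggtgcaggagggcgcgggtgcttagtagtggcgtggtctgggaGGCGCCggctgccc
Wnt8b: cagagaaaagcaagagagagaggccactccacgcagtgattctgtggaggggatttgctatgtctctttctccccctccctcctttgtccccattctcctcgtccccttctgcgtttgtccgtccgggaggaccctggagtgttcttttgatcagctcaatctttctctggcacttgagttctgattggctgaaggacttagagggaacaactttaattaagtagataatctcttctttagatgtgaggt
Wnt3: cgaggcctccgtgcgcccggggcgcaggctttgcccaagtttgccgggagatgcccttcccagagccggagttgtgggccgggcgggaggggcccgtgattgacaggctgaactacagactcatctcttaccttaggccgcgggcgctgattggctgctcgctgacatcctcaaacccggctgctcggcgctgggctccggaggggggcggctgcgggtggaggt
The Tgfbi window held 59.4% G and C over 187 bases, the Wnt8b window 48.4% over 250 bases and the Wnt3 window 68.9% over 225 bases. Of the 54 members, 37 had a promoter in the table, 48 windows of 300 bases in all. Read on both strands, GGCGCC lay in 18 of the 48 and in 11.9% of all 32851 promoters. The Tcf and Lef letters CTTTGAT or CTTTGAA, which share their first letters, lay in 1 of the 48, that of Wnt11, and in 8.65% of all. The Smad letters GTCTAGAC and the Gli letters GACCACCCA lay in 0 of the 48 and in 0.213% and 0.253% of all. Base composition was not matched, and letters in a window are a description and not a bound site.

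**Figure D3:**
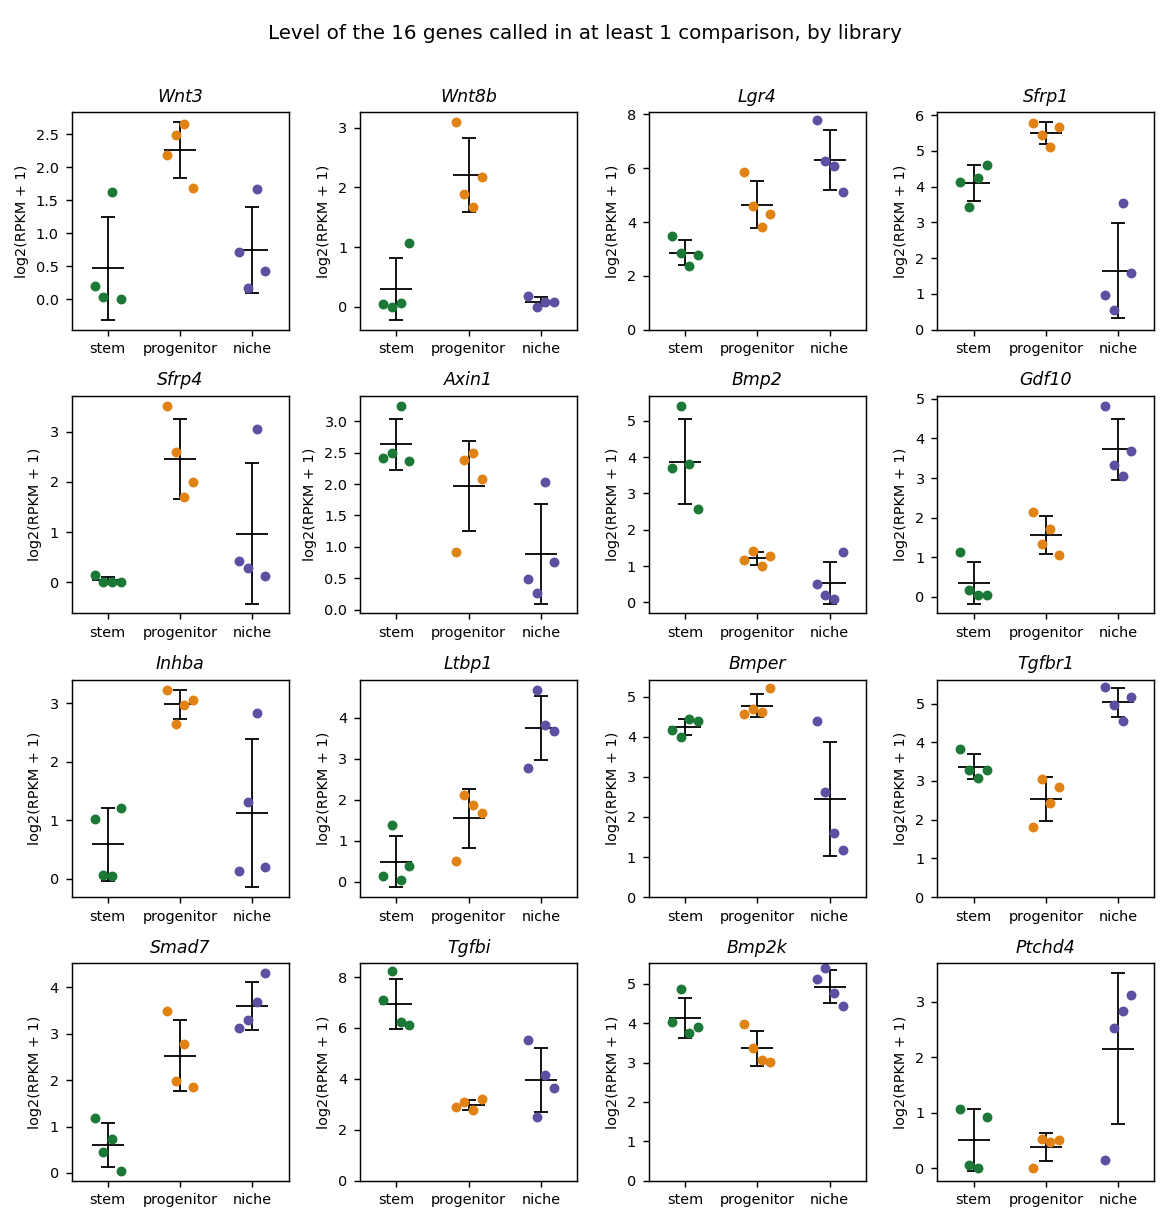
Level of the 16 genes called in at least 1 comparison, as log2(TMM-scaled RPKM + 1), in stem, progenitor and niche libraries from left to right. Each point is 1 library and the black bar is the mean with the SD of the 4 log2 values; Bmp2 and Tgfbi stand higher in all 4 stem libraries than in any other library, and Wnt8b higher in all 4 progenitor libraries.

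Among Wnt ligands, Wnt3 and Wnt8b were higher in progenitor than in both other populations. Wnt8b, a ligand known from the embryonic hippocampal region (ENSMUSG00000036961, GRCm38 chromosome 19, 44493472 to 44514273), was at 0.0318, 0, 0.0450 and 1.10 RPKM in stem, 7.52, 2.69, 2.19 and 3.498 in progenitor and 0.134, 0, 0.0542 and 0.0514 in niche libraries. All 4 progenitor libraries lay above every other library, and 48 of the 51 stem reads came from replicate 4. The log2 difference was -1.91 ± 0.39 for stem minus progenitor (adjusted p = 0.00596), 0.21 ± 0.39 for stem minus niche (0.736) and 2.12 ± 0.39 for progenitor minus niche (0.00180). Both calls held under all 20 alternatives.

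Wnt3 (ENSMUSG00000000125, chromosome 11, 103774150 to 103817957), a ligand that astrocytes of the adult hippocampus are known to secrete, was at 0.153, 0.0283, 2.10 and 0 RPKM in stem, 3.55, 4.62, 5.31 and 2.23 in progenitor and 0.646, 0.1245, 2.19 and 0.346 in niche libraries. Progenitor libraries were all higher than the others, by little over stem replicate 3 and niche replicate 3. The difference was -1.79 ± 0.47 for stem minus progenitor (adjusted p = 0.0292) and 1.51 ± 0.47 for progenitor minus niche (0.0498). Against progenitor the call fell away when stem replicate 1 (0.0959), 2 (0.108) or 4 (0.105) or progenitor replicate 1 (0.0616), 2 (0.0803) or 3 (0.0891) was left out. Progenitor minus niche lost its call without any 1 of 10 libraries (0.0576 to 0.136), all but stem replicate 3 and niche replicate 3. It was also lost with a pseudocount of 0.1 RPKM (0.122), without the filter (0.0661), in a fit of the 2 populations only (0.104), with voom (0.0977) and without progenitor replicate 1 and niche replicate 1 together (0.0666).

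The other tested Wnt ligands were not called with all libraries in the fit described above. Wnt5a, best known for signalling that does not use beta-catenin, was at 5.52, 1.15, 2.55 and 3.34 RPKM in stem, 3.23, 4.40, 4.73 and 7.20 in progenitor and 0.292, 2.28, 2.04 and 0.298 in niche libraries. It made up 64.4% of the summed mean level of the 6 Wnt ligands in stem, beside 32.7% in progenitor and 26.8% in niche. These shares of means were not tested and did not hold in each library. In progenitor replicate 1, Wnt8b (7.52 RPKM) and Wnt4 (6.36) were above Wnt5a (3.23). The progenitor libraries of Wnt5a lay above the niche ones, with a difference of 1.50 ± 0.50 (adjusted p = 0.0616), called by library size alone (0.0237), with voom (0.0466) and without niche replicate 2 (0.0476). Wnt4 was at 0.328 to 0.502 in the stem libraries, 0.196 to 6.36 in the progenitor and 0.861 to 4.12 in the niche libraries, and took 49.1% of the Wnt ligand sum in niche. It was called lower in stem than in niche without progenitor replicate 1 (-1.13, 0.0429). Without that library and niche replicate 1, it was lower in both stem (-1.42, 0.0103) and progenitor (-1.29, 0.0328) than in niche. The sum itself ran from 1.68 to 7.95 in the stem libraries, 12.6 to 20.8 in the progenitor and 1.93 to 7.49 in the niche libraries, so progenitor libraries were apart from both other populations.

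Of 3 secreted Frizzled-related proteins, which bind Wnt ligands outside the cell, Sfrp1 and Sfrp4 were called and Sfrp2 was not. Sfrp1 (ENSMUSG00000031548, chromosome 8, 23411502 to 23449632) was at 16.6, 9.75, 17.9 and 23.3 RPKM in stem, 54.4, 42.1, 33.7 and 49.8 in progenitor and 0.945, 0.465, 10.54 and 2.00 in niche libraries. Only niche replicate 3 reached into the stem range, and no progenitor library was as low as a stem library. The difference was 2.45 ± 0.56 for stem minus niche (adjusted p = 0.00568) and 3.85 ± 0.56 for progenitor minus niche (0.000341), both held under all 20 alternatives, and -1.40 ± 0.56 for stem minus progenitor (0.185). In a fit of stem and progenitor libraries alone the last p was 0.00530, and with voom 0.0454.

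Sfrp4 (ENSMUSG00000021319, chromosome 13, 19623104 to 19632994) was at 0.106, 0, 0 and 0 RPKM in stem, 10.4, 5.08, 2.26 and 2.99 in progenitor and 0.337, 0.216, 7.34 and 0.0858 in niche libraries. The stem libraries held 2 reads in all, so the fitted difference of -2.42 ± 0.60 for stem minus progenitor (adjusted p = 0.0204) depends on the pseudocount. It was lost without any stem library (0.0528, 0.0640, 0.0540 and 0.0576 without replicates 1 to 4) and without progenitor replicate 1 (0.0818) or 2 (0.0543), and a pseudocount of 4 RPKM put it at the threshold (0.05003). Niche replicate 3 stood far above the other niche libraries, and without it progenitor minus niche was called at 2.14 (0.00454), against 1.49 ± 0.60 (0.122) with it. It was also called by library size alone (0.0475). Sfrp2 was at 1.09, 0, 0 and 0 in stem, 4.04, 0.813, 0.436 and 0.265 in progenitor and 0, 0, 1.20 and 10.96 in niche libraries, with populations that overlap.

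Of 7 Wnt receptors and co-receptors, 1 was called, for stem minus niche, where 21.6% of all genes were called. Lgr4, a receptor of R-spondins that strengthens Wnt signalling (ENSMUSG00000050199, chromosome 2, 109917647 to 110014257), was at 10.03, 6.28, 4.17 and 5.83 RPKM in stem, 57.4, 23.0, 13.0 and 18.6 in progenitor and 221, 75.7, 66.4 and 33.4 in niche libraries. All stem libraries were below all others, and progenitor replicate 1 reached into the niche range. The difference was -3.44 ± 0.55 for stem minus niche (adjusted p = 0.000345), held under all 20 alternatives. It was -1.77 ± 0.55 for stem minus progenitor (0.0684) and -1.67 ± 0.55 for progenitor minus niche (0.0617). These last values were called with the replicate number as a block (0.0152 and 0.0173) and without progenitor replicate 1 and niche replicate 1 together (0.0260 and 0.00814). Stem minus progenitor was also called without niche replicate 1 (0.0127) or 4 (0.0495), by library size alone (0.0237) and in a fit of the 2 populations only (0.0137). Progenitor minus niche was also called without progenitor replicate 1 (0.0210) or niche replicate 4 (0.0191) and with voom (0.0246).

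Frizzled receptors averaged at most 6.18 RPKM in any population, and limma called 0 of the 5 tested in each comparison, beside 7.09% to 21.6% of all genes. At an unadjusted p under 0.05 there were 0, 1 and 2 for stem minus progenitor, stem minus niche and progenitor minus niche, and voom called 0. Fzd2 was at 3.94, 1.62, 2.75 and 1.31 RPKM in stem, 7.11, 5.15, 3.97 and 7.07 in progenitor and 0.340, 6.38, 2.43 and 15.6 in niche libraries, so progenitor lay above stem while niche spanned both. Fzd7 was at 0.945, 2.27, 1.51 and 0.280 in stem, 1.85, 0.920, 1.14 and 1.22 in progenitor and 1.33, 1.86, 0.952 and 6.36 in niche libraries. Fzd6 averaged 1.93 ± 0.840 in stem libraries, 3.93 ± 1.05 in progenitor and 3.20 ± 2.95 in niche ones (SD, n = 4 each). Fzd4 reached at most 4.02 RPKM in any library and Fzd10 at most 3.44. Without niche replicate 4, Fzd4 was called lower in stem (-1.43, adjusted p = 0.0142) and in progenitor (-1.70, 0.00917) than in niche. Without niche replicate 3, the same held for Fzd10 (-1.13, 0.0356, and -1.20, 0.0422). Lrp4, a co-receptor that also serves agrin, was at 7.21 to 12.1 in the stem libraries, 10.1 to 17.9 in the progenitor and 4.55 to 25.2 in the niche libraries.

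Core transducers overlapped between populations, apart from Axin1. Ctnnb1, which encodes beta-catenin, was at 69.6, 61.7, 83.4 and 82.8 RPKM in stem, 79.4, 58.5, 69.5 and 66.5 in progenitor and 132, 48.7, 67.4 and 45.1 in niche libraries. The populations overlapped, with differences of 0.11 ± 0.33, 0.15 ± 0.33 and 0.03 ± 0.33 for stem minus progenitor, stem minus niche and progenitor minus niche (adjusted p = 0.936, 0.794 and 0.965). By library size alone, Ctnnb1 was called higher in stem than in niche (0.83, 0.0174). Axin1, a scaffold of the complex that degrades beta-catenin (ENSMUSG00000024182, chromosome 17, 26138688 to 26195811), was at 4.35, 4.64, 8.47 and 4.15 in stem, 0.894, 4.23, 4.62 and 3.21 in progenitor and 0.401, 0.202, 3.10 and 0.700 in niche libraries. Stem lay above niche without overlap, by 1.74 ± 0.51 (0.0235), and the call was lost without stem replicate 3 (0.0773) or niche replicate 2 (0.0641).

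Axin2, a target gene of Wnt signalling and itself an inhibitor, was at 1.91, 1.74, 3.02 and 1.35 RPKM in stem, 3.01, 2.37, 1.62 and 2.09 in progenitor and 11.01, 2.91, 0.735 and 2.85 in niche libraries. It was called in none of the 3 comparisons (adjusted p = 0.953, 0.517 and 0.687), nor in any of the 20 alternatives to each. Apc, the tumour suppressor of the same complex, was at 10.96, 6.54, 6.17 and 7.43 in stem, 3.30, 13.2, 10.4 and 10.01 in progenitor and 3.81, 3.68, 9.74 and 8.11 in niche libraries, with overlap throughout. The Dishevelled genes, which relay the signal from Frizzled, averaged 2.26 ± 0.876, 2.43 ± 0.375 and 1.55 ± 1.32 for Dvl1 in stem, progenitor and niche (SD, n = 4 each). Dvl2 averaged 18.04 ± 3.29, 23.4 ± 3.83 and 13.6 ± 6.29, and Dvl3 8.20 ± 0.893, 9.07 ± 3.12 and 5.42 ± 2.39, in the same order.

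The 2 nuclear partners of beta-catenin among the members, Tcf7l2 and Lef1, were present in every library. Tcf7 and Tcf7l1 were not among the members. Tcf7l2 was at 37.5, 48.7, 29.1 and 31.7 RPKM in stem, 16.1, 45.5, 30.5 and 33.8 in progenitor and 44.1, 44.4, 21.4 and 24.3 in niche libraries. Lef1, a factor needed for the formation of the dentate gyrus, was at 7.85, 2.62, 15.1 and 10.2 in stem, 21.4, 14.1, 9.18 and 11.68 in progenitor and 12.8, 17.9, 4.80 and 7.48 in niche libraries. The populations overlapped for both genes, and neither was called.

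Of the BMP and TGF-beta ligands, Bmp2, Gdf10 and Inhba were called. Bmp2 took 69.2% of the summed mean level of the 7 ligands in stem, Gdf9 38.9% and Inhba 29.6% in progenitor, and Gdf10 60.9% in niche. These shares of means were not tested and did not hold in each library: Gdf9 was above Bmp2 in stem replicate 4 (10.2 and 4.92 RPKM) and above Gdf10 in niche replicate 2 (13.9 and 9.08). The sum itself overlapped, at 14.7 to 49.7 RPKM in the stem libraries, 18.5 to 33.3 in the progenitor and 17.6 to 28.3 in the niche libraries. Bmp2 (ENSMUSG00000027358, chromosome 2, 133552159 to 133562885) was at 11.9, 41.4, 13.1 and 4.92 in stem, 1.24, 1.69, 0.986 and 1.42 in progenitor and 0.417, 0.161, 0.0673 and 1.60 in niche libraries. Every stem library lay above all others. Its difference was 2.66 ± 0.55 for stem minus progenitor (adjusted p = 0.00694) and 3.32 ± 0.55 for stem minus niche (0.000459), both held under all 20 alternatives.

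Inhba, which encodes the subunit of activin A (ENSMUSG00000041324, chromosome 13, 16011851 to 16031621), was at 1.03, 0.0437, 0.0333 and 1.32 RPKM in stem, 8.37, 5.28, 6.83 and 7.30 in progenitor and 0.0995, 1.47, 6.15 and 0.152 in niche libraries. Stem and progenitor libraries did not overlap, and niche replicate 3 reached into the progenitor range. The difference was -2.39 ± 0.57 for stem minus progenitor (adjusted p = 0.0167) and 1.85 ± 0.57 for progenitor minus niche (0.0466). Leaving out stem replicate 2 (0.0688) or 3 (0.0600) or progenitor replicate 1 (0.0553) ended the call of stem minus progenitor. That of progenitor minus niche was lost with the replicate block (0.0648) and without any 1 library (0.0589 to 0.126) other than niche replicate 3. A pseudocount of 0.1 RPKM (0.101), no filter (0.0592), a fit of the 2 populations only (0.120), voom (0.0738) and leaving out progenitor replicate 1 and niche replicate 1 together (0.120) ended it too.

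Gdf10 (ENSMUSG00000021943, chromosome 14, 33923587 to 33937983), a ligand of the TGF-beta family also called BMP3b, was at 1.18, 0.137, 0.0349 and 0.0355 RPKM in stem, 3.45, 1.52, 2.29 and 1.10 in progenitor and 27.2, 9.08, 7.36 and 11.9 in niche libraries. Niche libraries were all above the others. The difference was -3.37 ± 0.49 for stem minus niche (adjusted p = 0.000137), held under all 20 alternatives, and -2.16 ± 0.49 for progenitor minus niche (0.00973), lost only with a pseudocount of 0.1 RPKM (0.0590). Stem minus progenitor was called only in a fit of those populations (0.0329) and with voom (0.0414).

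The remaining ligands were not called. Tgfb1, the ligand that names the family, was at 0.421, 1.70, 1.06 and 0.304 RPKM in stem, 0.111, 0.103, 0.0605 and 0.0709 in progenitor and 0.495, 0.319, 0.320 and 0.985 in niche libraries, with progenitor below both others. At these levels the log2(RPKM + 1) scale compresses the difference, which was 0.72 ± 0.31 for stem minus progenitor (adjusted p = 0.221). Bmp6 was at 1.29, 1.42, 0.0434 and 0 in stem, 0.193, 1.52, 1.24 and 2.90 in progenitor and 0.130, 0.167, 0.0524 and 0 in niche libraries. Without progenitor replicate 1, it was called higher in progenitor than in niche (1.35, 0.0364), against 1.06 ± 0.41 (0.108) with it. Bmp5 averaged 0.201 ± 0.282 in stem, 2.40 ± 2.35 in progenitor and 1.30 ± 1.75 in niche. Gdf9, known as an oocyte factor, averaged 5.23 ± 4.06, 9.10 ± 3.52 and 4.47 ± 6.48 (SD, n = 4 each). Bmp5 was called for stem minus progenitor in a fit of those libraries alone (0.0493), and Gdf9 for progenitor minus niche without niche replicate 2 (0.0486).

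Among extracellular proteins that hold or bind these ligands, Ltbp1 was lower and Bmper higher in both GFP-positive populations than in niche. Ltbp1, which tethers latent TGF-beta to the matrix (ENSMUSG00000001870, chromosome 17, 75005568 to 75392512), was at 0.101, 1.63, 0.0356 and 0.302 RPKM in stem, 0.422, 3.37, 2.68 and 2.23 in progenitor and 5.89, 24.7, 13.2 and 11.8 in niche libraries. No library of either GFP-positive population reached the lowest niche library. The difference was -3.25 ± 0.53 for stem minus niche (adjusted p = 0.000405), held under all 20 alternatives, and -2.19 ± 0.53 for progenitor minus niche (0.0146). The second was lost by library size alone (0.0638), with a pseudocount of 0.1 RPKM (0.0669) and in a fit of the 2 populations only (0.0513). Ltbp3 averaged 3.19 ± 1.05 in stem, 4.95 ± 0.757 in progenitor and 2.24 ± 1.64 in niche (SD, n = 4 each) and was not called.

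Bmper, a secreted regulator of BMP ligands (ENSMUSG00000031963, chromosome 9, 23223076 to 23485200), was at 16.8, 14.97, 20.6 and 20.04 RPKM in stem, 22.9, 24.9, 23.6 and 36.0 in progenitor and 19.9, 5.16, 2.00 and 1.27 in niche libraries. Niche replicate 1 lay within the stem range and the other niche libraries far below it. The difference was 1.80 ± 0.57 for stem minus niche (adjusted p = 0.0343) and 2.33 ± 0.57 for progenitor minus niche (0.0155). Stem minus niche lost its call without any 1 stem library (0.0592 to 0.0845) and when niche replicate 2 (0.0565), 3 (0.0992) or 4 (0.104) was left out. Progenitor minus niche lost it without progenitor replicate 4 (0.0558). A fit of only the populations compared ended both calls (0.0903 for stem minus niche and 0.0604 for progenitor minus niche).

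Of the 7 tested receptors of this family, 1 was called, for stem minus niche and for progenitor minus niche, where 21.6% and 11.4% of all genes were called. Tgfbr1, the type I receptor of TGF-beta (ENSMUSG00000007613, chromosome 4, 47353222 to 47414931), was at 13.3, 8.82, 7.40 and 8.74 RPKM in stem, 2.48, 7.35, 4.35 and 6.22 in progenitor and 42.2, 30.3, 22.5 and 35.0 in niche libraries. Every niche library was above every other one, and stem lay just above progenitor. The difference was -1.66 ± 0.42 for stem minus niche (adjusted p = 0.00975) and -2.50 ± 0.42 for progenitor minus niche (0.000935). By library size alone the first was -1.004 (0.0960), and the second held under all 20 alternatives.

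Further receptors were called when niche replicate 1 was left out. Bmpr2, the type II receptor of BMPs, was at 8.79, 11.03, 6.67 and 10.6 RPKM in stem, 6.31, 8.34, 7.16 and 6.64 in progenitor and 1.81, 14.97, 24.4 and 12.5 in niche libraries. Acvr2a, a type II receptor of activins, was at 4.67, 2.11, 3.45 and 3.35 in stem, 3.45, 6.42, 6.03 and 3.59 in progenitor and 0.595, 7.28, 22.4 and 12.2 in niche libraries. In both genes niche replicate 1 was the lowest of all 12 libraries and the other 3 niche libraries the highest. Acvr1b and Acvrl1, type I receptors, averaged 2.63 ± 0.883 and 1.92 ± 1.85 in stem, 4.39 ± 2.57 and 1.05 ± 0.607 in progenitor and 8.66 ± 6.06 and 9.93 ± 8.49 in niche (SD, n = 4 each). Without niche replicate 1, stem was lower than niche in Acvrl1 (-2.45, adjusted p = 0.00412), Acvr1b (-1.83, 0.00481) and Acvr2a (-1.76, 0.00573). Progenitor was then lower in Acvrl1 (-2.82, 0.00253), Bmpr2 (-1.22, 0.0189), Acvr2a (-1.36, 0.0353) and Acvr1b (-1.34, 0.0404). In all, 14 members were then called for stem minus niche, beside 29.8% of all genes, and 12 for progenitor minus niche, beside 19.7%.

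Niche replicate 1 was the lowest niche library for 23 of the 51 tested members (45.1%), beside 40.5% of all genes tested. Bambi, a pseudoreceptor that inhibits BMP and TGF-beta signals, was at 5.50, 0, 0.916 and 1.86 RPKM in stem, 15.8, 1.07, 3.62 and 6.00 in progenitor and 0, 0.440, 10.49 and 19.4 in niche libraries, with wide spread in each. Acvr2b averaged 3.07 ± 1.23 in stem, 4.58 ± 0.893 in progenitor and 2.92 ± 3.77 in niche (SD, n = 4 each).

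Among the Smads, the inhibitory Smad7 differed and the tested receptor Smads were not called. Smad7, which TGF-beta and BMP signals are known to induce (ENSMUSG00000025880, chromosome 18, 75367529 to 75395935), was at 1.28, 0.368, 0.655 and 0.0317 RPKM in stem, 10.2, 2.98, 5.90 and 2.61 in progenitor and 7.73, 8.77, 11.9 and 18.7 in niche libraries. All 4 stem libraries were below the other 8. The difference was -3.00 ± 0.50 for stem minus niche (adjusted p = 0.000430), held under all 20 alternatives, and -1.93 ± 0.50 for stem minus progenitor (0.0255). Against progenitor the call ended when stem replicate 2 (0.0805), 3 (0.0600) or 4 (0.0978) or progenitor replicate 1 (0.0818) or 3 (0.0865) was left out, and with a pseudocount of 4 RPKM (0.0738).

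Smad5, a Smad of BMP receptors, was at 17.5, 8.74, 15.2 and 16.8 RPKM in stem, 10.7, 12.4, 11.8 and 11.2 in progenitor and 1.48, 3.29, 10.2 and 8.29 in niche libraries. It missed the threshold for stem minus niche at 1.38 ± 0.49 (adjusted p = 0.0566). Leaving out niche replicate 3 (0.0297) or 4 (0.0441), library size alone (0.0198), a pseudocount of 4 RPKM (0.0492) and voom on the recovered reads (0.0386) each gave a call. Smad2, a Smad of TGF-beta and activin receptors, was at 17.7, 19.2, 10.98 and 15.8 in stem, 5.51, 10.3, 11.95 and 12.5 in progenitor and 0.761, 13.0, 5.22 and 15.9 in niche libraries, with overlap between populations.

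Of the 4 hedgehog genes, limma called 0 in each comparison, and voom on the recovered reads also called 0. Of all genes tested, limma called 7.09% for stem minus progenitor, 21.6% for stem minus niche and 11.4% for progenitor minus niche. A count of 0 in 4 genes is not set apart from these shares. At an unadjusted p under 0.05 there was 1, Gli3, for progenitor minus niche. Smo, the transducing receptor, was at 12.2, 4.66, 6.45 and 12.6 RPKM in stem, 11.9, 6.74, 6.58 and 10.1 in progenitor and 78.9, 6.34, 18.6 and 12.6 in niche libraries, so that niche replicate 1 alone was far above the rest. Sufu, an inhibitor of Gli proteins, was at 6.03, 0.920, 4.72 and 5.86 in stem, 6.66, 4.45, 4.43 and 3.73 in progenitor and 0.476, 11.6, 7.71 and 10.1 in niche libraries.

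Gli3, the Gli factor that mainly represses, was at 6.09, 3.93, 6.47 and 6.19 RPKM in stem, 7.84, 6.80, 5.56 and 7.08 in progenitor and 2.82, 4.997, 2.88 and 0.525 in niche libraries. All progenitor libraries lay above the niche libraries, with a difference of 1.19 ± 0.47 (adjusted p = 0.113). Stem replicate 2 lay below niche replicate 2, and stem minus niche was 0.95 ± 0.47 (0.163). By library size alone both were called, at 1.66 (0.0207) for progenitor minus niche and 1.45 (0.0279) for stem minus niche. That scaling moves the median difference of all genes to 0.58 for stem minus niche and 0.62 for progenitor minus niche, against 0.09 and 0.15 with TMM, to which the values here are relative.

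The member with the highest mean level in stem is only named after a pathway. Tgfbi, a matrix protein induced by TGF-beta (ENSMUSG00000035493, chromosome 13, 56609523 to 56639562), was at 136, 303, 74.3 and 68.6 RPKM in stem, 6.35, 7.46, 5.85 and 8.33 in progenitor and 44.7, 4.66, 16.9 and 11.4 in niche libraries. The lowest stem library was above the highest of the others. The difference was 3.94 ± 0.58 for stem minus progenitor (adjusted p = 0.000675) and 2.97 ± 0.58 for stem minus niche (0.00176), both held under all 20 alternatives.

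Markers of macrophages, like Tgfbi and Bmp2, were higher in stem than in progenitor. The summed microglia and macrophage list was 2885, 7549, 2303 and 1962 RPKM in stem replicates 1 to 4, and replicate 2, the highest, was also the highest for Tgfbi, Bmp2 and Tgfb1. Progenitor libraries held 116, 227, 143 and 225, and niche libraries 4384, 4559, 2621 and 4863. In niche libraries the list was thus as high as in most stem libraries while Tgfbi and Bmp2 were lower. Within the list, Mrc1, a mannose receptor of macrophages, ran from 181 to 740 in the stem libraries, 4.78 to 13.7 in the progenitor and 4.96 to 12.1 in the niche libraries, and Adgre1 from 154 to 566 in the stem libraries, 1.69 to 12.6 in the progenitor and 6.62 to 84.5 in the niche libraries. Trem2, a microglial receptor, ran from 60.5 to 200 in the stem libraries, 6.15 to 8.70 in the progenitor and 162 to 464 in the niche libraries. The part of macrophages in these results was not tested.

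**Figure D4:**
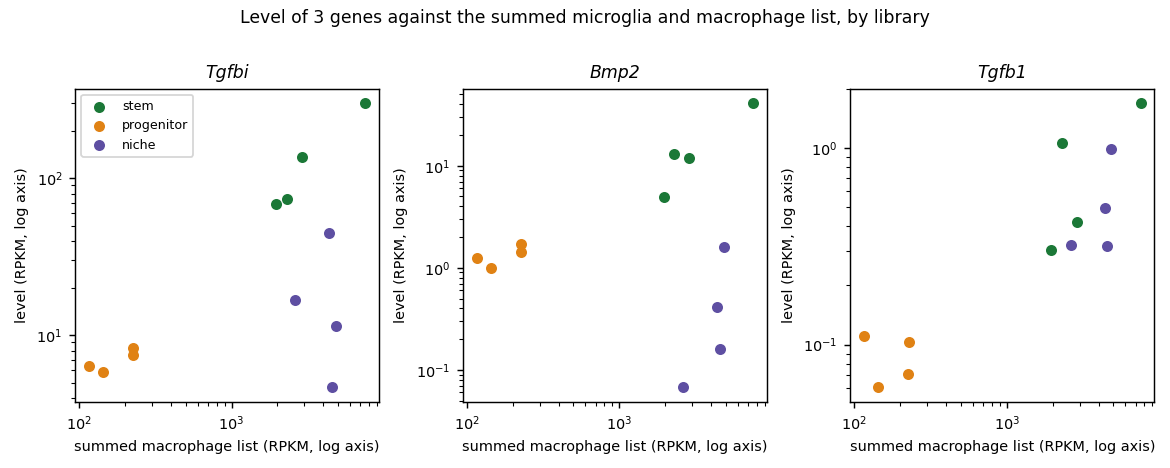
Level of Tgfbi, Bmp2 and Tgfb1 in each library against the summed microglia and macrophage list of that library, both in TMM-scaled RPKM on log axes. Stem replicate 2 lies at the upper right in all 3 panels, with 303, 41.4 and 1.70 RPKM at a list sum of 7549, and the niche libraries lie below the stem libraries for Tgfbi and Bmp2.

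Lists of other cell types also stood at different levels. The neuroblast list (5 of 10 above 0) summed to 55.0 to 110 RPKM in the stem libraries, 903 to 2401 in the progenitor and 189 to 436 in the niche libraries, in the order seen for Wnt3, Inhba and Sfrp4. Eomes of that list was lower in niche (0.292 to 1.18 RPKM) than in stem (17.1 to 30.9), against the order of the sum. Its progenitor libraries were highest (33.2 to 48.2). Of the 5 genes, 1 was called higher and 3 lower in stem than in niche. The fibroblast and meninges list (6 of 8) summed to 5.29 to 57.4 in the stem libraries, 101 to 250 in the progenitor and 18.4 to 133 in the niche libraries. It too ran in the order of Wnt3, Inhba and Sfrp4, though progenitor and niche libraries overlapped. The mural list (4 of 9) summed to 11.5 to 184 in the stem libraries, 668 to 1642 in the progenitor and 551 to 1768 in the niche libraries, and the oligodendrocyte list (6 of 8) to 147 to 614, 2173 to 6186 and 2623 to 5840 in the same order. For genes highest in niche, such as Lgr4, Gdf10, Ltbp1 and Tgfbr1, the astrocyte list (6 of 10) summed to 557 to 1142 in the stem libraries, 3386 to 4865 in the progenitor and 4896 to 6475 in the niche libraries. The choroid plexus and ependyma list (4 of 8) stood at 13.1 to 69.8 in the stem libraries, 100 to 488 in the progenitor and 4112 to 9370 in the niche libraries. The endothelial list (4 of 10) stood at 16.8 to 38.5, 42.3 to 70.8 and 128 to 839 in that order, the mature neuron list (5 of 10) at 13.9 to 24.7, 19.4 to 52.7 and 122.5 to 581, and the precursor list of oligodendrocytes (5 of 6) at 24.001 to 43.0, 15.5 to 48.0 and 133 to 260. Ttr made up most of the choroid plexus and ependyma sum in every library. Ccdc153 of that list was instead highest in progenitor (5.19 to 22.5, beside 0 to 0.146 in niche). Of the 4 genes, 1 was called higher and 2 lower in progenitor than in niche. Sfrp1 and Bmper were highest in progenitor and lowest in niche, and Axin1 was highest in stem and lowest in niche. By their sums, none of the lists just given ran in either order, though Eomes of the neuroblast list ran in the first. The sum of the cell cycle list ran in the second (498 to 890 RPKM in stem, 155 to 246 in progenitor, 6.52 to 80.4 in niche). That of the neural stem list ran in the first, with overlap (602 to 1193, 1106 to 2412 and 592 to 736). Fabp7 made up most of the neural stem sum in every library, and not all genes of that list ran in its order. Id4 was lowest in stem (7.21 to 13.6, beside 32.3 to 67.7 in niche). Sox1 was highest in stem (17.4 to 34.0, beside 10.3 to 16.3 in progenitor). The part of these cells was not tested.

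The other genes that only carry a pathway name were Bmp2k, Ptchd4 and Tgfb1i1. Bmp2k, a kinase linked to endocytosis (ENSMUSG00000034663, chromosome 5, 96997689 to 97091867), was at 15.3, 28.2, 12.4 and 13.8 RPKM in stem, 14.7, 9.32, 7.39 and 7.13 in progenitor and 33.9, 41.0, 26.3 and 20.6 in niche libraries. Progenitor and niche did not overlap, by -1.57 ± 0.41 (adjusted p = 0.0202), and the call was lost without progenitor replicate 2 (0.0573), 3 (0.0716) or 4 (0.0713), in a fit of the 2 populations only (0.0629) and by library size alone (0.0914). Ptchd4 (ENSMUSG00000042256, chromosome 17, 42315947 to 42505077), a Patched-domain protein, was at 1.09, 0.0380, 0.00966 and 0.904 in stem, 0.0107, 0.450, 0.394 and 0.434 in progenitor and 0.115, 4.75, 6.09 and 7.64 in niche libraries. Niche replicate 1 was again unlike the other niche libraries. Stem minus niche was -1.64 ± 0.55 (0.0461), kept without niche replicate 1 (-2.43, 0.000370) and lost without any other single library (0.0513 to 0.123). Other pseudocounts, filters or fits that ended it were 0.1 RPKM (0.110), no filter (0.0688), library size alone (0.0679), the 2 populations only (0.104) and voom (0.0720). Progenitor minus niche was -1.77 ± 0.55 (0.0511), and it was called without niche replicate 1 (-2.56, 0.000452) and with a pseudocount of 4 RPKM (0.0368). Tgfb1i1, an adaptor of focal adhesions, averaged 10.4 ± 4.31 in stem, 18.6 ± 4.91 in progenitor and 9.34 ± 8.09 in niche (SD, n = 4 each).

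Other genes of the pathways were taken from a list by role. Of 16 tested TGF-beta and BMP genes beyond the members, 0 were higher and 3 lower in stem than in progenitor, beside 3.71% and 3.39% of all genes. Against niche, 1 was higher and 6 lower in stem, beside 10.9% and 10.7%, and 0 were higher and 4 lower in progenitor, beside 5.68% and 5.77%. Of 18 tested Wnt genes, 1 was called for stem minus niche, beside 21.6% of all genes. For stem minus progenitor and progenitor minus niche 0 were called, beside 7.09% and 11.4%. The gene called, Pygo2, a nuclear co-factor of beta-catenin, was higher in stem than in niche (1.86 ± 0.53, adjusted p = 0.0205). Its call was lost without stem replicate 3 (0.0671) or niche replicate 4 (0.0597) and in a fit of the 2 populations only (0.0571). Of 8 tested hedgehog genes, limma called 0 in each comparison, beside 7.09% to 21.6% of all genes. At an unadjusted p under 0.05 there were 0, 1 and 2, and voom called 0, 1 and 1, for stem minus progenitor, stem minus niche and progenitor minus niche.

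Id3 and Id4, which encode inhibitors of basic helix-loop-helix factors and are known targets of BMP signals, were lower in stem than in both other populations. Id4 was at 10.3, 7.21, 13.6 and 9.78 RPKM in stem, 81.0, 37.5, 32.8 and 41.9 in progenitor and 67.7, 52.3, 32.3 and 57.0 in niche libraries. Every stem library was below all others. The difference was -2.07 ± 0.38 for stem minus progenitor (adjusted p = 0.00286) and -2.23 ± 0.38 for stem minus niche (0.000510), both held under all 20 alternatives. Id3 was at 48.2, 22.8, 40.6 and 13.4 in stem, 275, 71.4, 76.3 and 81.1 in progenitor and 989, 506, 266 and 346 in niche libraries. Stem minus niche was -4.00 ± 0.51 (4.65e-05) and progenitor minus niche -2.13 ± 0.51 (0.0137), both held under all alternatives. Stem minus progenitor was -1.87 ± 0.51 (0.0355), lost without stem replicate 2 (0.112) or 4 (0.123) or progenitor replicate 1 (0.120), 3 (0.0509) or 4 (0.0515) and with voom (0.0982). Id1 averaged 23.1 ± 5.08 in stem, 44.1 ± 39.3 in progenitor and 159 ± 198 in niche (SD, n = 4 each) and was not called.

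Skil, a repressor of Smad activity that TGF-beta induces, was at 7.57, 9.89, 6.26 and 4.97 RPKM in stem, 9.77, 9.21, 7.18 and 7.24 in progenitor and 35.3, 33.7, 24.9 and 27.4 in niche libraries. Niche was above both others without overlap, by -1.96 ± 0.37 for stem minus niche (adjusted p = 0.00145) and -1.74 ± 0.37 for progenitor minus niche (0.00653), under all alternatives. Eng, an endothelial co-receptor, and Itgav, an integrin that releases latent TGF-beta, were lower in stem (-2.23 ± 0.58, 0.0120, and -1.76 ± 0.42, 0.00671) and in progenitor (-2.43 ± 0.58, 0.0131, and -1.71 ± 0.42, 0.0145) than in niche. The progenitor call of Itgav was lost without progenitor replicate 3 (0.0591) or 4 (0.0521). By library size alone both calls of Itgav were lost (0.0541 in stem and 0.0679 in progenitor), and the progenitor call of Eng in a fit of the 2 populations only (0.0533). Nodal, a ligand, was lower in stem than in progenitor (-1.72 ± 0.47, 0.0373), lost without any 1 stem (0.0847 to 0.102) or progenitor library (0.0629 to 0.119), with a pseudocount of 4 RPKM (0.0753) and without the filter (0.0571). Chrd, a BMP antagonist, had 0 RPKM in all stem libraries and 0.181 to 10.995 in niche libraries (0.0364), and Tgif2 was higher in stem than in niche (1.89 ± 0.63, 0.0424). The Chrd call was lost without any 1 stem library (0.0753 to 0.0785) or niche replicate 1 (0.0728) or 3 (0.0889), without niche replicate 1 and progenitor replicate 1 together (0.0613), without the filter (0.0557) and with a pseudocount of 4 RPKM (0.0508). That of Tgif2 was lost without any 1 library other than niche replicate 1 (0.0512 to 0.128), with the replicate block (0.0516), a pseudocount of 0.1 RPKM (0.0528) or no filter (0.0524), and in a fit of the 2 populations only (0.0942).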

How the data were processed

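RNA of 1000 sorted cells per library was amplified and sequenced, per the labels' protocols. The deposited values are named as counts but are on a log2 scale and were read as log2(RPKM + 1), with RPKM computed by the authors. The genome build was GRCm38 (mm10), per the submitters' processing notes. Which aligner and counter were used, and whether strand was used, is not given in the sources used here. With the log undone, 100% of the 10510 genes above 0 came out as whole reads in every library within 1e-05 reads, 1223 at the annotated exon length and 9287 at a length found from the values. Reads were amplified without molecular identifiers, so depth gives counting error only: the floor of 3 reads was 0.131 to 0.395 CPM. No pair of replicates lay within sampling noise, with a chi-square over its degrees of freedom of at least 38.9.

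The filter asked for a CPM of 0.767 (10 reads in a median library) in at least 4 libraries and for 15 reads in total, which left 8360 genes. RPKM values were scaled by TMM factors, and log2(RPKM + 1) was modelled over all 12 libraries with 1 mean per population in limma 3.58.1 (R 4.3.3, statmod 1.5.0), with an intensity trend and robust spread. The test is two-sided, with Benjamini-Hochberg adjustment over all genes tested. The fit was tested on simulated data, which had the same dispersion for every gene and no outlying library such as niche replicate 1. Tables and promoter letters were handled in Python 3.11.15. Symbols were found for 10579 identifiers. All tested members called in a comparison, and others fixed by role, are given by library, and the rest by means or ranges; 1 member is counted but not reported here. The members and all lists were chosen with earlier results of these data known. Alternatives were other pseudocounts, no filter, library size alone, 2 populations per fit, the replicate number as a block, voom on the recovered reads, each library left out, and progenitor replicate 1 and niche replicate 1 left out together.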

Additional observations from a re-analysis of the deposited data

Results flagged for a closer look

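A library far from the other 3 of its population was looked for in each tested member and population. The gap from the extreme library to its nearest neighbour, over the whole range on the log2(RPKM + 1) scale, passed Dixon's critical value for 4 libraries in 12 of 153 cases. For values with a normal spread, chance alone gives about 5% of such cases. Where 3 libraries are at 0, as for Sfrp2 and Sfrp4 in stem, any read in the remaining library is flagged, so the 5% does not hold. Values are TMM-scaled RPKM.

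In stem, 8 cases were found. Axin1 was at 8.47 in replicate 3, beside 4.15 to 4.64 in the other stem libraries, and Wnt3 at 2.10 in replicate 3, beside 0 to 0.153. Replicate 1 stood high in Gdf10 (1.18, beside 0.0349 to 0.137), Sfrp2 (1.09, beside 0 in the others) and Sfrp4 (0.106, beside 0). Replicate 2 stood low in Gli3 (3.93, beside 6.09 to 6.47) and Sufu (0.920, beside 4.72 to 6.03). Wnt8b was at 1.10 in replicate 4, beside 0 to 0.0450.

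In progenitor, replicate 1 stood apart in 3 genes. Dvl2 was at 17.7, beside 25.1 to 25.6, and Ptchd4 at 0.0107, beside 0.394 to 0.450, while Fzd10 was at 0.679, beside 0.0847 to 0.140. In niche, Sfrp4 was at 7.34 in replicate 3, beside 0.0858 to 0.337.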

How the results depend on the processing

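Over the 27 calls of members, 540 alternatives were run: 448 kept the call and its direction, 92 kept the direction without passing the threshold, and 0 reversed. Under all 20 alternatives, 13 of the calls held, and 16 held without any single library.

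Leaving out 1 library moved the number of members called to 3 to 8 for stem minus progenitor (7 with all libraries), 8 to 14 for stem minus niche (11) and 5 to 12 for progenitor minus niche (9). The numbers over all genes moved to 355 to 1093 (593), 1272 to 2488 (1806) and 536 to 1641 (957). The highest numbers over all genes came without niche replicate 1. Without it and progenitor replicate 1 together, 9, 17 and 15 members and 1115, 3001 and 1987 genes were called, in the same order. In fits of only the 2 populations compared, 11 members and 1418 genes were called for stem minus progenitor, and 4 members and 539 genes for progenitor minus niche. A pseudocount of 0.1 RPKM left 5 members for progenitor minus niche. By library size alone, 1839 genes were called there, 1525 higher and 314 lower against 475 and 482, and for stem minus niche 2017 higher and 586 lower against 911 and 895. The cause of these shifts was not tested.

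The titles give the same replicate numbers in each population. Deviations from the population mean correlated at -0.13 to 0.21 over the 12 same-numbered pairs, and the same number was the best match in 9 of 24 cases. These weak correlations cannot exclude a pairing, which the series' description of 3 populations from each of 4 replicates allows. The main fit left a pairing out, and a fit with the replicate number as a block was run as an alternative. With the replicate number as a block, 8, 11 and 9 members and 607, 1814 and 948 genes were called.

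Depth limits the low genes. In stem, Sfrp4 held 2 reads, so its difference rests on the pseudocount. Wnt10a held 0 reads there and did not pass the filter. Genes of the minus strand are not analysed here. The stem gate holds macrophage transcripts, and libraries cannot be resolved into cell types.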
